A study of Homo sapiens with 18 samples.

Results

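The 10 genes described here are regulators of the G1 phase of the cell cycle, with MYC as 1 of the 10. They were measured by RNA-seq in uveal melanoma cell lines kept with inhibitors of the histone methyltransferase EHMT2 (G9a). They are the D cyclins CCND1 and CCND3, the kinases CDK4 and CDK6, the inhibitors CDKN2A, CDKN1A and CDKN1B, the cyclin CCNE1, the pocket protein RB1 and the transcription factor MYC. They were chosen by symbol, and all 10 were found among the 26475 gene symbols of the deposited count table. All 10 also passed the filter on low counts in each fit.

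The study asked how EHMT2 in cancer cells limits their killing by NK cells. RNA-seq in uveal melanoma, a melanoma of the eye, served to look for genes downstream of EHMT2. By clonogenic assay, the study reports no effect of either inhibitor on the growth of cancer cells. Mel92.1 and MP41, both established uveal melanoma lines, were grown in RPMI medium and treated with DMSO (the solvent), UNC0642 or A366. Both inhibitors target the catalytic site shared by EHMT2 and its partner EHMT1 and were given at 1 µM for 48 h. The 6 groups hold 3 replicates each, described as biological replicates, which makes 18 libraries. Every group is 1 cell line in culture, so that each comparison speaks for that line and not for tumours, and the number of lines is 2. No inactive control compound was among the groups used here. The labels give both lines the same serum, whereas the study's methods give MP41 more serum than Mel92.1, so that a difference between the lines and one of serum cannot be told apart.

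Progression through G1 depends on D cyclins, which activate CDK4 and CDK6 to phosphorylate RB1 and so release E2F factors from it. Cyclin E then drives entry into S phase, while INK4 proteins such as p16 block CDK4 and CDK6, and p21 and p27 bind cyclin and kinase complexes. In uveal melanoma, activating mutations of the Gq pathway feed growth signals into this module, and MYC lies in a chromosome arm that is often gained in these tumours.

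Libraries labelled A366 replicates 2 and 3 of either line went against their labels. Line identity was read from 20 genes at 20 CPM or more (the count scaled to library size with TMM factors) in each Mel92.1 DMSO library and at 0.05 CPM or less in each MP41 DMSO library, and from 21 genes with the opposite pattern. In these 4 libraries the other line's genes stood at 95.2% to 121% of that line's DMSO mean, and those of the line on the label at no more than 0.0348%. The 14 remaining libraries held no more than 0.432% of the genes of the line they do not belong to. The 4 libraries were therefore placed in the other line, as the authors' own listing of replicates has them, and A366 results are given with that placement first, with values as labelled or without the 4 libraries beside the main ones. A replicate of A366 is named below by the line it was placed in.

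Total counts ran from 23601156 to 62941462 per library, and 4 ribosomal RNA genes took 3.31% to 32.8% of them. The lowest total and the highest ribosomal share were both those of Mel92.1 UNC0642 replicate 1. All 7 melanocyte markers were detected in every group, with a summed level of 15000 to 24400 CPM, although DCT was low in Mel92.1 (1.16 to 10.6 CPM). Lymphocyte markers summed to at most 1.27 CPM and epithelial markers to at most 1.77 CPM. Fibroblast markers summed to 23.1 to 53.7 CPM, nearly all of it from COL1A1 and LUM. Endothelial markers summed to 2.37 to 3.14 CPM with A366 in MP41, most of it from VWF (2.2 to 2.88 CPM). They summed to at most 1.35 CPM in the other groups, and their part in the A366 results was not tested. EHMT2, the target, ran from 77.5 to 118 CPM over the 18 libraries. It was higher with A366 in MP41 than with DMSO (log2 fold change 0.23, SE 0.061, adjusted p = 0.00936, edgeR) or UNC0642 (0.28, SE 0.061, adjusted p = 0.00338). In those comparisons 46.0% and 43.1% of all genes were called, and the EHMT2 values are with the placement only. EHMT1 ran from 77.4 to 97.5 CPM in Mel92.1 and from 36.0 to 46.1 CPM in MP41. In bulk RNA, fewer cells carrying a transcript and less of it per cell cannot be told apart, and an mRNA level does not give the activity of a kinase or the phosphorylation of RB1.

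**Figure D1:**
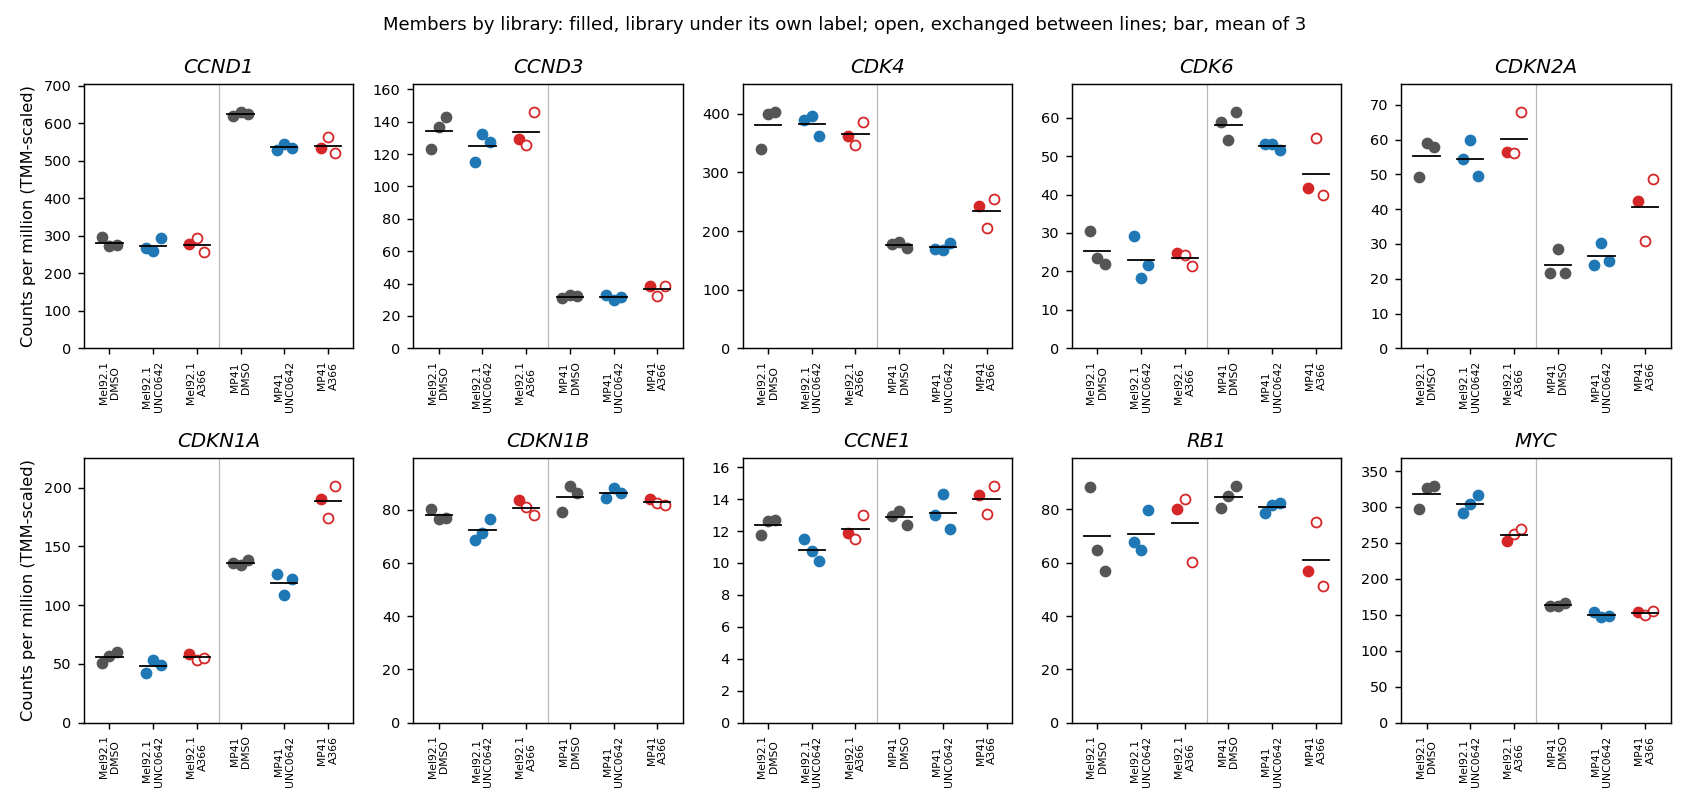
Level of each of the 10 genes in each of the 18 libraries, in CPM with TMM factors (axes start at 0). Each point is 1 library, open points are the 4 libraries exchanged between the lines, and bars are means of 3. CCND1, CDK6 and CDKN1A lie higher in MP41 and CCND3, CDK4, CDKN2A and MYC higher in Mel92.1, while CDKN1B, CCNE1 and RB1 overlap.

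With DMSO, 7 of the 10 genes differed between Mel92.1 and MP41 in the quasi-likelihood test of edgeR (Benjamini-Hochberg adjusted p under 0.05), where 69.4% of all 15799 genes tested did so. CCND3, CDK4, CDKN2A and MYC were higher in Mel92.1, and CCND1, CDK6 and CDKN1A were higher in MP41. Each of the 7 had no overlap between the lines' replicates, and CDKN1B, CCNE1 and RB1 did not pass the test. The median log2 difference of the 10 (Mel92.1 minus MP41) was -0.089, beside -0.022 over all genes. The size of some differences changed with the fit. With a correction for GC content and transcript length, described below, the log2 difference was 0.75 for CDKN2A and -1.66 for CDKN1A. With a replicate block as well, it was -0.50 for CDK6.

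The D cyclins took opposite sides. CCND1, the cyclin induced by mitogen signalling, stood at 297, 272 and 277 CPM in Mel92.1 and at 619.7, 630.0 and 625 CPM in MP41. All MP41 libraries were thus above every Mel92.1 library, with a 2.22-fold higher level in MP41 (log2 difference -1.15, SE 0.061, adjusted p = 2.29e-11, edgeR). CCND3, a D cyclin prominent in lymphoid cells and in differentiated tissue, stood at 123, 137 and 143 CPM in Mel92.1 and at 31.0, 32.6 and 32.3 CPM in MP41. It had the largest difference of the 10 genes at 4.21-fold (log2 difference 2.07, SE 0.089, adjusted p = 1.2e-12, edgeR). CCND2, the remaining D cyclin, averaged 0.0136 CPM in Mel92.1 and 0.114 CPM in MP41.

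Their kinase partners split in the same manner. CDK4 stood at 340.2, 399 and 403 CPM in Mel92.1 and at 178, 181 and 172 CPM in MP41 (2.15-fold, log2 difference 1.11, SE 0.081, adjusted p = 1.59e-09, edgeR). CDK6 stood at 30.6, 23.5 and 22.0 CPM in Mel92.1 and at 58.9, 54.2 and 61.5 CPM in MP41 (log2 difference -1.20, SE 0.15, adjusted p = 1.93e-06, edgeR). Mel92.1 DMSO replicate 1 was the highest for CDK6 and the lowest for CDK4 within its group.

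Among the inhibitors, CDKN2A and CDKN1A differed and CDKN1B did not pass the test. CDKN2A, which encodes p16INK4A and p14ARF from different first exons, stood at 49.2, 59.0 and 57.9 CPM in Mel92.1 and at 21.6, 28.5 and 21.6 CPM in MP41 (2.32-fold, log2 difference 1.21, SE 0.16, adjusted p = 2.04e-06, edgeR). CDKN1A, which encodes p21, stood at 50.6, 56.9 and 60.0 CPM in Mel92.1 and at 136, 134 and 138 CPM in MP41. Its level was 2.44-fold higher in MP41 (log2 difference -1.28, SE 0.090, adjusted p = 9.06e-10, edgeR). CDKN1B, which encodes p27, ran from 76.7 to 80.1 CPM in Mel92.1 and from 79.2 to 88.8 CPM in MP41, with an adjusted p of 0.0785 by edgeR and a 95% interval of the log2 difference from -0.25 to 0.0041.

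CCNE1, the cyclin E that partners CDK2, ran from 11.8 to 12.7 CPM in Mel92.1 and from 12.4 to 13.3 CPM in MP41, and the 95% interval of its log2 difference was -0.27 to 0.15. RB1 ran from 57.1 to 88.3 CPM in Mel92.1 and from 80.4 to 88.7 CPM in MP41, with an interval from -0.61 to 0.062. MYC stood at 298, 326 and 329 CPM in Mel92.1 and at 162, 162 and 166 CPM in MP41 (1.94-fold, log2 difference 0.96, SE 0.053, adjusted p = 3.76e-11, edgeR). The lowest Mel92.1 library was thus far above the highest MP41 library for MYC.

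Divided by transcript length, which allows genes to be set beside each other, CDK4 and MYC led in Mel92.1 with DMSO at 183 and 134 CPM per kb, followed by CCND1 at 65.4 and CCND3 at 56.2 CPM per kb. In MP41 CCND1 led at 145 CPM per kb, ahead of CDK4 at 85.2, MYC at 69.1 and CDKN1A at 60.0 CPM per kb. CCND3 in MP41 stood at 13.4 CPM per kb. CDK6 was lowest of the 10 in both lines, at 2.19 CPM per kb in Mel92.1 and 5.01 CPM per kb in MP41, and CCNE1 was next at 6.05 and 6.30 CPM per kb. These levels use the longest annotated transcript, and a gene expressed from shorter isoforms would be placed too low.

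The MYC network and its targets were mixed between the lines. Of 16 MYC target genes, a list that includes CDK4, 8 were higher and 2 lower in Mel92.1 (median log2 difference 0.44), and of 11 tested partners and antagonists of MYC 5 were higher and 4 lower. Of all 15799 genes tested, 5457 were higher and 5505 lower. With the correction for GC content and length, 8 targets were higher and 1 lower, and 3 partners and antagonists were higher and 2 lower. MLXIPL, a glucose-responsive factor of that network, averaged 1.17 CPM in Mel92.1 and had 0 counts in all 3 MP41 DMSO libraries, at least 17.6-fold higher when 3 counts per library are taken as the floor. MXD4, an antagonist of MYC, was higher in Mel92.1 (log2 difference 1.91, SE 0.14). USP28, a deubiquitinase that stabilises MYC, was lower there (log2 difference -2.08, SE 0.18). CCNE2, the second cyclin E, averaged 15.4 CPM in Mel92.1 and 75.6 CPM in MP41 (log2 difference -2.29, SE 0.11), whereas CCNE1 did not pass the test.

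Of the remaining lists, 2 of 9 tested G1 kinases and cyclins beside the 10 genes were higher and 3 lower in Mel92.1, and 3 of 5 other CDK inhibitors were higher and 1 lower. Of 12 pocket proteins and E2F factors 5 were higher and 3 lower, and of 16 S phase entry genes 8 were higher and 5 lower. Among 10 genes for turnover of cyclins, p27 and MYC, 5 were higher and 3 lower. The INK4 locus and its repressors held 3 of 6 that were lower and 0 that were higher. These counts stand beside 69.4% of all genes called between the lines. With the correction for GC content and length, the counts of these 6 lists, higher and lower, were in the same order 2 and 4, 1 and 1, 5 and 2, 5 and 4, 5 and 2, and 0 and 2.

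With UNC0642 in Mel92.1, none of the 10 genes passed the test in the quasi-likelihood fit of edgeR (Benjamini-Hochberg adjusted), and 0 had an unadjusted p under 0.05. The share called was 0.688% of all 14528 genes. Replicates did not overlap for 2 of the 10 (CDKN1B and CCNE1, both lower with UNC0642), where 15.4% of all genes did not overlap. CCNE1 stood at 11.8, 12.6 and 12.7 CPM with DMSO and at 11.5, 10.8 and 10.1 CPM with UNC0642, a log2 fold change of -0.20 (SE 0.11, 95% interval -0.46 to 0.052). CDKN1A had the largest estimate of the 10 (log2 fold change -0.21, SE 0.11, 95% interval -0.44 to 0.026), with replicates that overlapped.

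A366 in Mel92.1 gave a similar count. None of the 10 genes passed the test (quasi-likelihood test of edgeR, Benjamini-Hochberg adjusted), 1 had an unadjusted p under 0.05, and 0.213% of all 14528 genes were called. Replicates did not overlap for 1 of the 10, MYC, where 15.7% of all genes did not overlap. MYC stood at 298, 326 and 329 CPM with DMSO and at 253, 262 and 269.6 CPM with A366, so that each A366 library was below each DMSO library. The log2 fold change was -0.28 (SE 0.062, 95% interval -0.42 to -0.14, adjusted p = 0.194, edgeR).

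MYC with A366 in Mel92.1 was past the threshold in DESeq2, limma voom with quality weights and the edgeR fit of all 18 libraries, and in 0 of the 9 fits that left out 1 library. With the 4 exchanged libraries left out, which leaves 1 A366 library in this line and assumes that it varies like the other groups, the log2 fold change was -0.34 (SE 0.10). With the libraries as labelled it was -0.76 (SE 0.19, adjusted p = 0.162), where 2 of the 3 A366 libraries carry MP41 genes and MYC is lower in MP41 without inhibitor. As labelled, 0 of the 10 genes and 0.0% of all genes passed the test.

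The other 9 genes had 95% intervals that included 0 with A366 in Mel92.1. CCND1 stood at 277, 295 and 255 CPM with A366 against 297, 272 and 277 CPM with DMSO (log2 fold change -0.030, 95% interval -0.19 to 0.13). CDKN1A stood at 58.7, 52.96 and 55.2 CPM with A366 and 50.6, 56.9 and 60.0 CPM with DMSO (log2 fold change -0.0034, 95% interval -0.24 to 0.23). For RB1 the interval ran from -0.29 to 0.47 and for CDK6 from -0.50 to 0.28, the widest of the 10. Changes of the size seen for CCND1 in MP41, described next, could not have been told apart from 0 for RB1 or CDK6 in Mel92.1.

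With UNC0642 in MP41, none of the 10 genes passed the test in the quasi-likelihood fit of edgeR (Benjamini-Hochberg adjusted), 3 had an unadjusted p under 0.05, and 0.241% of all 14956 genes were called. Replicates did not overlap for 4 of the 10 (CCND1, CDK6, CDKN1A and MYC, all lower with UNC0642), where 18.7% of all genes did not overlap. CCND1 stood at 619.7, 630.0 and 625 CPM with DMSO and at 528, 546 and 533 CPM with UNC0642. The groups were 14.5% apart (log2 fold change -0.23, SE 0.052, 95% interval -0.34 to -0.11, adjusted p = 0.146, edgeR).

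CCND1 with UNC0642 in MP41 was past the threshold in 7 of 22 alternatives, among them the fit of the compared groups alone (adjusted p = 0.012), the fit without the 4 exchanged libraries (adjusted p = 0.0108), the GC and length offset (adjusted p = 0.0137) and the fit without MP41 A366 replicate 2. Its log2 fold change lay between -0.25 and -0.22 in all 22, and its adjusted p between 0.0066 and 1.00. CDKN1A stood at 136, 134 and 138 CPM with DMSO and at 126, 109 and 123 CPM with UNC0642 (log2 fold change -0.20, SE 0.074, adjusted p = 0.455, edgeR). MYC stood at 162, 162 and 166 CPM with DMSO and at 153, 147 and 148 CPM with UNC0642 (log2 fold change -0.14, SE 0.055, adjusted p = 0.499, edgeR).

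**Figure D2:**
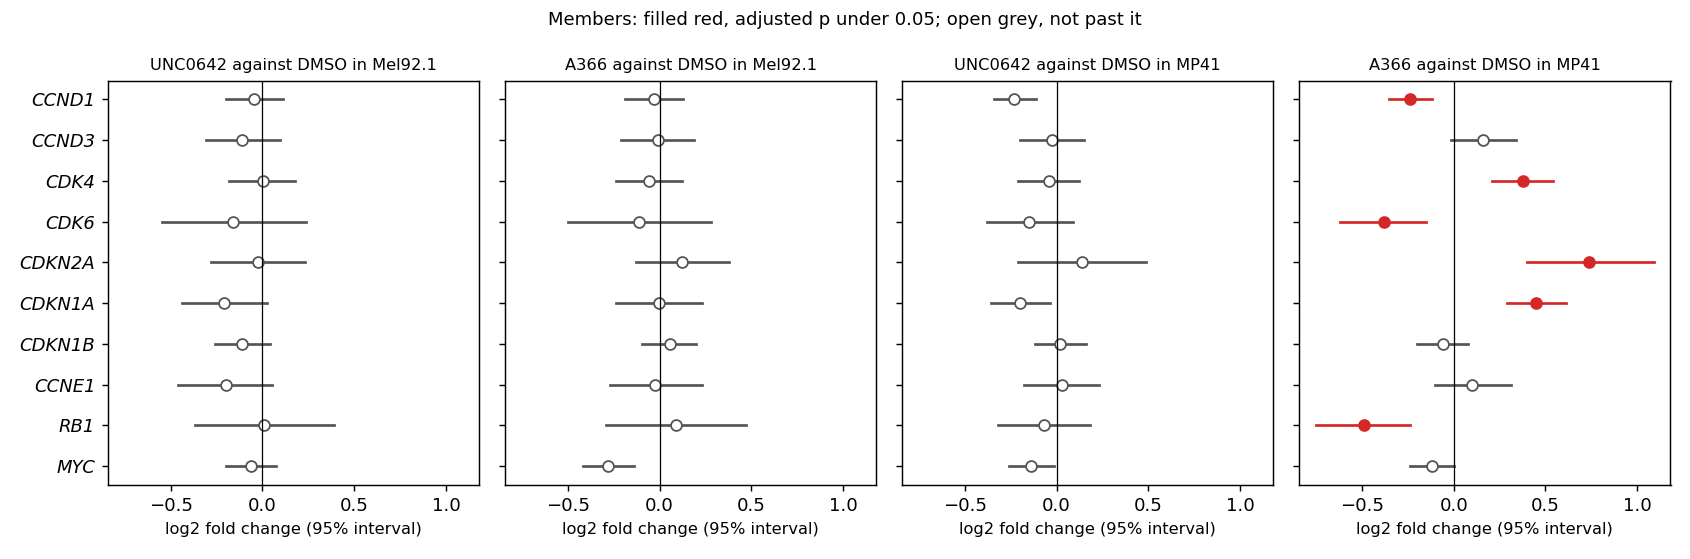
Log2 fold change against DMSO of each of the 10 genes, with its 95% interval, for UNC0642 and A366 in Mel92.1 and in MP41, with the 4 exchanged libraries in the line they were placed in. Filled red points passed an adjusted p of 0.05 and open grey points did not. The 6 filled points are all in the panel for A366 in MP41, and CCND1 lies near -0.23 with either inhibitor in MP41.

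Among the inhibitor comparisons, calls among the 10 genes were made for A366 in MP41. CCND1, CDK6 and RB1 fell and CDK4, CDKN2A and CDKN1A rose, 6 of the 10 genes in the quasi-likelihood test of edgeR (Benjamini-Hochberg adjusted), where 46.0% of all 14956 genes were called. Replicates did not overlap for 6 of the 10 (the called genes without CDK6, and MYC), where 58.0% of all genes did not overlap. The median log2 fold change of the 10 was 0.021, beside 0.020 over all genes. CCND3, CDKN1B, CCNE1 and MYC did not pass the test.

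CCND1 stood at 535, 563 and 520.4 CPM with A366, below every DMSO library (619.7 to 630.0 CPM). It fell by 15.1% (log2 fold change -0.24, SE 0.052, adjusted p = 0.00346, edgeR). The fall was past the threshold in all 22 alternatives, including each of the 9 fits without 1 library, the GC and length offset (log2 fold change -0.28, adjusted p = 0.000383) and the fit without the 4 exchanged libraries (log2 fold change -0.27, adjusted p = 0.00116). As labelled it was -0.79 (SE 0.23, adjusted p = 0.0329), with 2 of the 3 A366 libraries carrying Mel92.1 genes. CCND3 stood at 38.5, 32.2 and 38.6 CPM with A366 and at 31.0, 32.6 and 32.3 CPM with DMSO (log2 fold change 0.16, SE 0.081, adjusted p = 0.116, edgeR).

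Without a correction for GC content and length, the kinases moved in opposite directions. CDK4 stood at 242, 204 and 255 CPM with A366 against 178, 181 and 172 CPM with DMSO, and all A366 libraries were higher. It rose 1.30-fold (log2 fold change 0.38, SE 0.076, adjusted p = 0.00221, edgeR). CDK6 stood at 41.7, 54.6 and 39.9 CPM with A366 against 58.9, 54.2 and 61.5 CPM with DMSO, and replicate 2 lay within the DMSO range. It fell by 23.2% (log2 fold change -0.38, SE 0.11, adjusted p = 0.0129, edgeR). Without MP41 DMSO replicate 3, without MP41 A366 replicate 1 or in the fit of all 18 libraries, CDK6 was not past the threshold. Neither CDK4 nor CDK6 was past it with the GC and length offset described below, where the value of CDK6 was positive.

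Both inhibitors that rose did so in every A366 library. CDKN2A stood at 42.4, 31.0 and 48.8 CPM with A366 against 21.6, 28.5 and 21.6 CPM with DMSO, a 1.67-fold rise (log2 fold change 0.74, SE 0.16, adjusted p = 0.00297, edgeR). CDKN1A stood at 191, 174 and 201 CPM with A366 against 136, 134 and 138 CPM with DMSO, a 1.36-fold rise (log2 fold change 0.45, SE 0.073, adjusted p = 0.000853, edgeR). Neither CDKN2A nor CDKN1A was past the threshold with the GC and length offset described below. CDKN1B ran from 81.9 to 84.0 CPM with A366 and from 79.2 to 88.8 CPM with DMSO, and its 95% interval was -0.20 to 0.080.

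RB1 stood at 57.0, 75.2 and 51.1 CPM with A366 against 80.4, 85.1 and 88.7 CPM with DMSO, with replicate 2 again the nearest to DMSO. Its level was 1.41-fold lower (log2 fold change -0.49, SE 0.12, adjusted p = 0.00505, edgeR). CCNE1 ran from 13.1 to 14.8 CPM with A366 and from 12.4 to 13.3 CPM with DMSO (95% interval -0.10 to 0.31). MYC stood at 154, 149.5 and 156 CPM with A366, below the DMSO libraries at 162, 162 and 166 CPM, a log2 fold change of -0.12 (SE 0.055, adjusted p = 0.0962, edgeR).

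With the 4 exchanged libraries left out, the 6 genes called for A366 in MP41 kept their directions. The log2 fold changes were 0.41 for CDK4, -0.52 for CDK6, 0.78 for CDKN2A, 0.44 for CDKN1A and -0.61 for RB1. That fit holds 1 A366 library in MP41 and assumes that it varies like the other groups, so it is no check of the spread with A366. With the libraries as labelled, 5 of the 10 passed the test (CCND1 and CDK6 lower, CCND3, CDK4 and CDKN2A higher), where 32.8% of all genes did. CCND3 then had a log2 fold change of 1.72 and CDKN1A one of -0.46 (adjusted p = 0.432), opposite to its direction with the placement. Each of these larger values has the sign of the line difference without inhibitor.

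The fold changes of A366 in MP41 followed the GC content and the length of transcripts over all genes. With genes split into 10 bins of equal size, the bin of lowest GC content (median 37.0%) had a median log2 fold change of -0.31 and the bin of highest GC content (median 64.1%) one of 0.36. By length, the median went from 0.38 in the bin of shortest transcripts to -0.39 in that of the longest. RB1 (37.3% GC, 4793 bases) and CDK6 (39.5% GC, 11612 bases) lie at the end of that trend where genes were lower, and CDKN2A (61.4% GC, 1283 bases) and CDKN1A (58.1% GC, 2267 bases) where genes were higher. CDK4 (53.6% GC, 2076 bases) and MYC (53.9% GC, 2366 bases) share bins with medians of 0.14 by GC content and 0.20 by length. CCND1 (50.3% GC, 4307 bases) lies in bins with medians of 0.047 and -0.085.

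**Figure D3:**
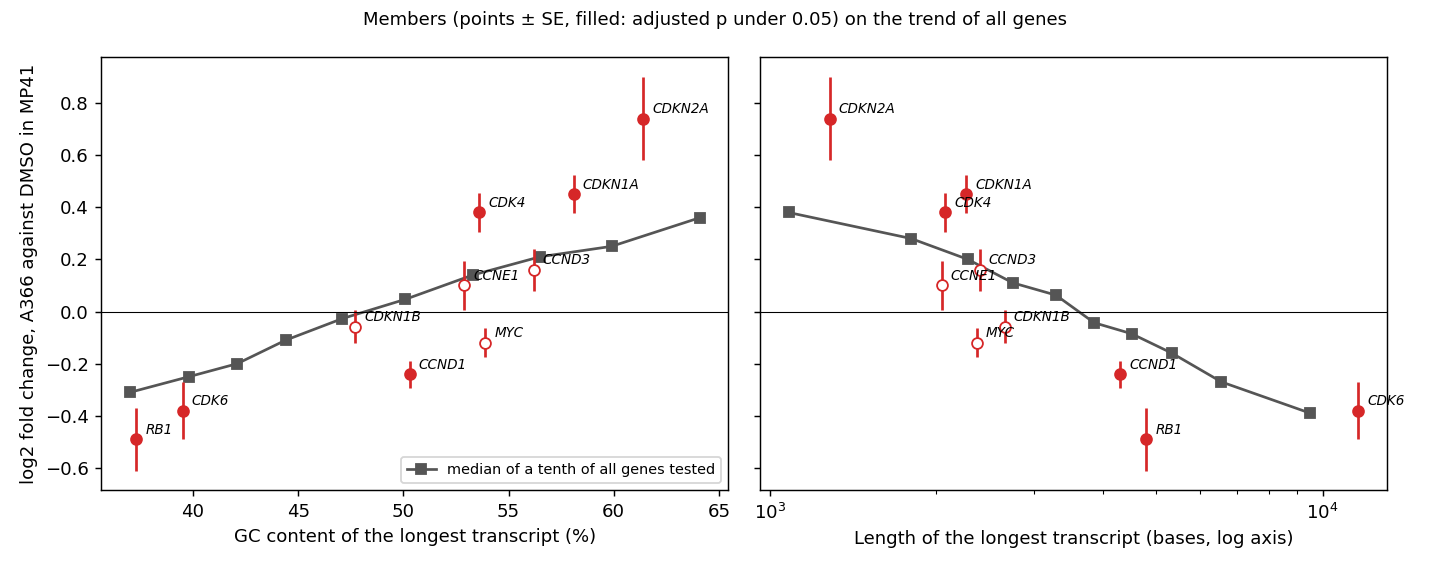
Log2 fold change of A366 against DMSO in MP41 against the GC content (left) and the length (right, log axis) of the longest transcript. Grey squares are medians of 10 bins of all genes tested and red points are the 10 genes with their SE (filled: adjusted p under 0.05). RB1, CDK6, CDK4, CDKN1A and CDKN2A follow the sign of the grey line, while CCND1 and MYC lie below it in the left panel.

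The same trend differed between replicates, and the genes followed its order. The gap between the highest and the lowest of the 10 GC bins, against the mean of the DMSO libraries, was 0.67, 0.38 and 0.95 (log2) in MP41 A366 replicates 1, 2 and 3, and between -0.030 and 0.12 in the 6 other MP41 libraries. RB1 was lowest and CDKN2A and CDK4 highest in replicate 3, with replicate 2 nearest to DMSO for CDK4, CDK6, CDKN2A, CDKN1A and RB1. In Mel92.1 the gap ran from -0.27 in DMSO replicate 1, where RB1 was highest, to 0.21 in DMSO replicate 3, where RB1 was lowest. Across the 18 libraries, centred on each line's mean, RB1 and CDK4 had a Pearson r of -0.908 and RB1 and CDKN2A one of -0.811, over points that share depth and this trend.

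A fit that corrected each library for GC content and transcript length, through an offset, changed which of the 10 genes were called. CCND1 (log2 fold change -0.28), RB1 (-0.24), MYC (log2 fold change -0.40, SE 0.046, adjusted p = 7.52e-05, edgeR), CDKN1B (-0.19) and CCNE1 (-0.22, adjusted p = 0.0467) were lower with A366, 5 of the 10 where 36.4% of 14455 genes were called. CDK4 (0.047, adjusted p = 0.553), CDKN2A (0.21, adjusted p = 0.15) and CDKN1A (0.11, adjusted p = 0.136) kept a positive value without passing, and CDK6 stood at 0.10 (adjusted p = 0.182). CCND1 and RB1 were the genes called lower both with and without that offset. Whether the trend with GC content and length comes from the cells or from library preparation was not tested.

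**Figure D4:**
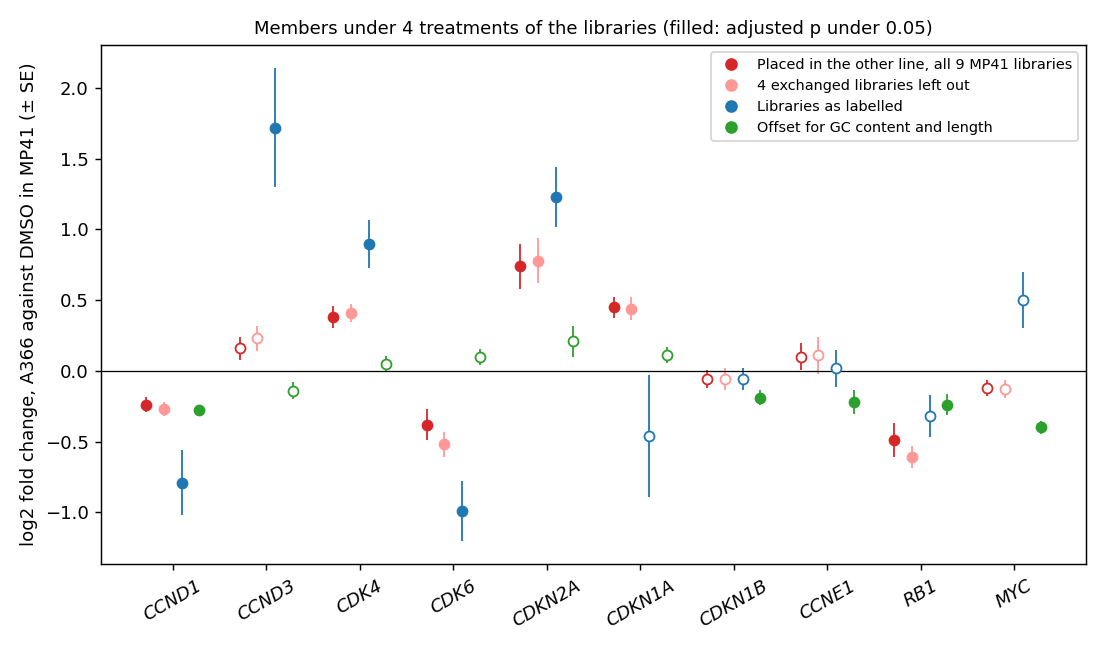
Log2 fold change (± SE) of A366 against DMSO in MP41 for each of the 10 genes with the exchanged libraries in the line they were placed in (red), left out (pink), as labelled (blue) and corrected for GC and length (green). Filled points passed an adjusted p of 0.05. CCND1 is filled and below 0 in all 4, and CDKN1A is above 0 except as labelled.

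The 3 genes called higher with A366 in MP41 are shown with the 100 bases before their annotated starts. None of the 3 was called with the GC and length offset. The sequences are from RefSeq (GRCh38.p14), read 5′ to 3′ on the strand of the gene, with GC boxes (GGGCGG on either strand) in capitals. CDKN2A has a start for p14ARF (at chr9:21995325-21995424, minus strand) and one for p16INK4A (at chr9:21974858-21974957, minus strand). The windows of CDKN1A (chr6:36678614-36678713, plus strand) and CDK4 (chr12:57752311-57752410, minus strand) follow.
CDKN2A, p14ARF start: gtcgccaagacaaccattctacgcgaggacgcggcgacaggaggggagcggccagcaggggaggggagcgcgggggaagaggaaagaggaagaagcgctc
CDKN2A, p16INK4A start: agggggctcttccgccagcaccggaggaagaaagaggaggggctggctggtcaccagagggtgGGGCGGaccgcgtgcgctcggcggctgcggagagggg
CDKN1A: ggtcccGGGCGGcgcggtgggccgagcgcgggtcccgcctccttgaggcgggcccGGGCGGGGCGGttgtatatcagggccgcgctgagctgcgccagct
CDK4: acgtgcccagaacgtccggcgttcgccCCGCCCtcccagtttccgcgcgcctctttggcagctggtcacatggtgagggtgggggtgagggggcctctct

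The CDKN1A window held 3 GC boxes, of which a pair share a base, and the windows of CDK4 and of the p16INK4A start held 1 each. The p14ARF window held 0. Of 35116 promoters, 31.3% held a GC box in the same 100 bases and 3.43% an E-box (CACGTG), the site that MYC and MAX bind, which none of these 4 windows held. GC content was 79.0% for CDKN1A, 69.0% for CDK4, 67.0% for the p14ARF start and 73.0% for the p16INK4A start, against a median of 60.0% over all promoters. Genes that did not rise had such windows too, with 2 GC boxes at a start of CDK6, which fell, and 2 GC boxes and 78.0% GC at that of CCNE1, which was not called. These matches describe the letters only, for genes picked from a comparison in which transcripts of high GC content were higher in general. The count table has 1 row for CDKN2A, so p16INK4A and p14ARF could not be told apart.

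Some rows can hold reads of neighbours. In GENCODE 29 (GRCh38), CDK4 (chr12:57747727-57756013) overlaps TSPAN31 and MARCH9 on the opposite strand, which ran from 10.6 to 28.1 and from 9.66 to 39.2 CPM. Its expected counts were not whole in 18 of 18 libraries, and those of CDKN2A (chr9:21967753-21995301), which overlaps CDKN2B-AS1 (1.03 to 2.85 CPM), in 15. The libraries were made strand-specific, and whether the counting used strand is not given in the sources used here. RB1 (chr13:48303726-48599436) holds LPAR6 within it on the opposite strand, at 7.63 to 18.9 CPM, and CCND1 (chr11:69641087-69654474) overlaps LTO1. CCNE1 (chr19:29811898-29824308) and MYC (chr8:127735434-127741434) overlapped no other annotated gene.

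Calls in the lists around the 10 genes went with the share of all genes called in each comparison (46.0% for A366 in MP41 and under 1% in the other inhibitor comparisons with DMSO). With UNC0642 in Mel92.1, 1 of 16 MYC target genes passed the test and 0 genes of the 7 other lists. That gene was NCL, a nucleolar protein of ribosome production (1072 CPM with DMSO and 1360.2 CPM with UNC0642). Its log2 fold change was 0.34 (SE 0.054, adjusted p = 0.0187, edgeR). NCL did not pass with the libraries as labelled (0.34), where 0 of all 14692 genes did. With the GC and length offset it did not pass either (0.57, adjusted p = 0.464, edgeR), and the median over all genes was 0.18 in that fit. With A366 in Mel92.1 and with UNC0642 in MP41, 0 genes of the 8 lists passed.

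With A366 in MP41, 7 of 12 relatives of RB1 and E2F factors fell and 2 rose, with a median log2 fold change of -0.35, where 3522 of all 14956 genes fell and 3362 rose. As labelled 2 fell and 2 rose. The 7 were RBL1 and RBL2 (the other pocket proteins), E2F2, E2F3, E2F7, E2F8 and TFDP1, and E2F1 and E2F4 rose. Of 16 S phase entry genes 8 fell and 2 rose (median -0.18), and as labelled 4 fell and 4 rose. CCNA2, CDC6, MCM3, MCM4, MCM6, PCNA, RRM2 and CCNE2 fell, and TK1 and E2F1 rose. With the GC and length offset, 7 fell and 2 rose in the first list and 11 fell and 0 rose in the second. In that fit more genes fell than rose in general (3255 and 2000 of all 14455 genes).

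MYC's network was divided. Of 10 tested partners and antagonists 4 rose and 2 fell (as labelled 2 and 1, with the offset 2 and 3), and MXD4 (log2 fold change 0.98, SE 0.13, adjusted p = 0.000412, edgeR) and MXD3 (0.72, SE 0.16), both antagonists of MYC, rose, while MGA, a repressor that binds MAX, fell (-0.90, SE 0.20). As labelled these were 1.65, 0.82 and -1.17. Of 16 MYC targets 6 rose and 6 fell, CDK4 among the former, and as labelled 7 rose and 2 fell. TERT, the catalytic subunit of telomerase, fell from 1.21 CPM (SD 0.165, n = 3) to 0.520 CPM (SD 0.150, n = 3), with a log2 fold change of -1.24 (SE 0.33, adjusted p = 0.00894, edgeR). As labelled it was -0.11 and did not pass. With the offset, 0 of the 16 targets rose and 10 fell, where 2000 of all 14455 genes rose and 3255 fell.

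Of 5 other CDK inhibitors CDKN2C and CDKN2D rose and 0 fell, whereas 1 rose and 0 fell as labelled and 0 rose and 1 fell with the GC and length offset. Of 6 genes of the INK4 locus and its repressors CBX7 rose and EZH2 and MTAP fell (as labelled 0 rose and 2 fell, with the offset 0 and 1). Of 10 genes for turnover of cyclins, p27 and MYC 1 rose and 5 fell, among them SKP2 (as labelled 3 rose and 3 fell, with the offset 2 and 4). Of 9 other G1 kinases and cyclins 1 rose and 3 fell (as labelled 0 rose and 1 fell, with the offset 0 and 4).

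The inhibitors were also set against each other at the same dose and time. In Mel92.1, 0 of the 10 genes differed between A366 and UNC0642 (quasi-likelihood test of edgeR, Benjamini-Hochberg adjusted), 2 had an unadjusted p under 0.05, and 0.165% of all genes differed. As labelled the counts were 0 of the 10 and 0.0% of all genes. MYC was 253, 262 and 269.6 CPM with A366 and 292, 305 and 316 CPM with UNC0642, which do not overlap (log2 difference -0.21, 95% interval -0.35 to -0.074, adjusted p = 0.428, edgeR).

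In MP41, CDK4, CDKN2A and CDKN1A were higher and RB1 lower with A366 than with UNC0642, 4 of the 10 where 43.1% of all genes differed. CDKN1A had the largest log2 difference, 0.64 (SE 0.074, adjusted p = 0.000144, edgeR), with 191, 174 and 201 CPM against 126, 109 and 123 CPM. It was also past the threshold with the GC and length offset (0.35, adjusted p = 0.000507), where CDK6 was higher and CDKN1B and MYC lower, 4 of the 10 beside 36.4% of all genes. As labelled its value was -0.26 (adjusted p = 0.657), and 5 of the 10 and 31.0% of all genes passed. CCND1 was 535, 563 and 520.4 CPM with A366 and 528, 546 and 533 CPM with UNC0642, a log2 difference of -0.0094 with a 95% interval from -0.12 to 0.10 (as labelled -0.56, adjusted p = 0.0923, edgeR). UNC0642 and A366 differ in their chemical scaffold, and the comparisons against DMSO share their DMSO libraries.

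The difference between the lines in the response was tested as an interaction in 1 fit of the 18 libraries (log2 fold change in Mel92.1 less the one in MP41). For UNC0642, 0 of the 10 genes passed in the quasi-likelihood test of edgeR (Benjamini-Hochberg adjusted), 1 had an unadjusted p under 0.05, and 0.601% of all genes passed. For CCND1, which stood lower with UNC0642 in MP41, the interaction was 0.18 (95% interval 0.00037 to 0.36, adjusted p = 0.509). For A366, 2 of the 10 passed, CDK4 (-0.46, SE 0.11, adjusted p = 0.0164) and CDKN1A (-0.48, SE 0.13, adjusted p = 0.0222), beside 13.8% of all genes. As labelled 7 of the 10 passed beside 49.4% of all genes, and the interaction of CDKN1A was 1.82. Without the 4 exchanged libraries, and with the GC and length offset, 0 of the 10 passed.

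In the order of the 6 group means, CCND1 was highest with DMSO in MP41, and its A366 and UNC0642 groups overlapped each other but not DMSO. CDKN1A was highest with A366 in MP41 (188 CPM, SD 13.8, n = 3), followed by DMSO and UNC0642 in that line with no overlap between neighbours. The 3 Mel92.1 groups of CCND1, CCND3, CDK4, CDK6, CDKN2A and CDKN1A overlapped from neighbour to neighbour. MYC fell into Mel92.1 DMSO and UNC0642, which overlapped, then Mel92.1 A366 and MP41 DMSO, each apart from its neighbours, and the inhibitor groups of MP41, which overlapped. For RB1 every neighbouring pair of groups overlapped, and for CDKN1B and CCNE1 every pair but the last, since UNC0642 in Mel92.1 was lowest and apart from the group above it.

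Other genes with the pattern most like CCND1, CDKN1A and MYC were sought by Pearson's r of the log2 CPM, centred on each line's mean, over the 18 libraries and among 11927 genes. Closest to CCND1 were ITPR2 (r = 0.877), TPPP (0.875) and PREPL (0.860). Near to CDKN1A were CTDSP1 (0.955) and MAFF (0.948), and closest to MYC were TRAF3IP2 (0.857), RAB3A (0.811) and MORC2 (0.784). The libraries share depth and the trend with GC content, so these values are a description.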

How the data were processed

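Values are the expected counts per gene that the authors deposited, made per the submitters' processing notes with RSEM 1.2.15 and Bowtie2 2.1.0 on hg38 and not normalized for library size; the study's methods instead describe a mouse reference genome and FPKM values from Cufflinks, which were not used. Expected counts were rounded, filtered with filterByExpr, scaled with TMM and tested with edgeR 4.0.16 (glmQLFit, glmQLFTest) in R 4.3.3, with Benjamini-Hochberg adjustment over all genes at 0.05. The 9 libraries of a line shared 1 fit, and line comparisons used all 18. Intervals are 95%. The code was tested on simulated data. GC content and length came from the longest GENCODE 29 transcript (24618 symbols matched), with natural splines of 5 degrees of freedom per library. DESeq2 1.42.0 and limma 3.58.1 served as alternatives.

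The members and gene lists were chosen with earlier results of these data known. Beside the 10 genes, the text names up to 5 called list genes of largest fold change per inhibitor comparison, 8 for the lines, and the 3 genes of most similar pattern to CCND1, CDKN1A and MYC. Called genes listed without values, CCND2 and the neighbouring genes were named after their values were seen. P-values rest on the spread between replicate cultures, within 1 line or, for comparisons of the lines, pooled over both. Some genes that this rule or the lists hold, and 1 list, are not reported here. No columns were left out.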

Additional observations from a re-analysis of the deposited data

Results flagged for a closer look

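The response to A366 differed between the lines for CDK4, with an interaction (log2 fold change in Mel92.1 less the one in MP41) of -0.46 (SE 0.11, adjusted p = 0.0164, quasi-likelihood test of edgeR, Benjamini-Hochberg adjusted). CDK4 stood higher with A366 than with DMSO in 3 of 3 MP41 libraries. The call was past the threshold in 21 of 30 alternatives. They include 13 of the 18 fits that left out 1 library, which share most of their libraries. They also include the fit as labelled (-1.36), where the A366 groups mix the lines and CDK4 differs between the lines without inhibitor.

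CDKN1A had an interaction of -0.48 (SE 0.13, adjusted p = 0.0222, edgeR) and was higher with A366 in 3 of 3 MP41 libraries. It was past the threshold in 20 of 30 alternatives, 12 of them fits that left out 1 library. Among the 20, the fit with the libraries as labelled had the opposite sign (1.82). Neither interaction was past the threshold with the GC and length offset, where CDK4 stood at -0.14 and CDKN1A at -0.13, nor without the 4 exchanged libraries, where they stood at -0.52 and -0.41.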

How the results depend on the processing

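The number of the 10 genes past the threshold moved by over 1.5 times in some fits. For A366 in Mel92.1 it was 0, but 1 in DESeq2, 4 in limma voom and 1 in the fit of all 18 libraries. Among all genes, 170 were called there in DESeq2, 3087 in limma voom and 136 in the fit of all 18 libraries. For UNC0642 in MP41 it was 0, but 1 (CCND1) without the 4 exchanged libraries, in DESeq2, limma voom, both GC and length offsets and the fit of the compared groups. Those fits called 75 to 180 of all genes for UNC0642 in MP41. For A366 against UNC0642 in Mel92.1 the number of the 10 genes was 0, but 1 in DESeq2 and in limma voom, where 214 of all genes were called in each. For the line difference in the response to A366 the number was 2, but 7 as labelled, 5 in DESeq2 and 9 in limma voom. Among all genes, 7801 were called as labelled, 3446 in DESeq2 and 9276 in limma voom. It was 0 without a composition factor and with either offset, where 482, 67 and 52 of all genes were called. Fits without 1 library called 621 to 3874 of all genes for that difference and 4797 to 7940 for A366 in MP41. Leaving out 1 library gave 0 to 5 for that difference (5 without Mel92.1 DMSO replicate 1, 4 without Mel92.1 A366 replicate 3 or MP41 A366 replicate 2, 0 without Mel92.1 DMSO replicate 2 or 3, MP41 A366 replicate 1 or 3, or Mel92.1 A366 replicate 2, 1 without MP41 DMSO replicate 1), 0 to 1 for UNC0642 in MP41, 5 to 7 for A366 in MP41, 3 to 6 for A366 against UNC0642 in MP41, 7 to 8 between the lines and 0 elsewhere.

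Of 2220 values of the 10 genes under alternatives, 2102 kept their direction or stayed uncalled, 38 lost the call, 70 gained one and 10 reversed, and 144 changed sign with no call in either fit. With the GC and length offset, without and with the replicate block, CDK6 reversed to 0.10 and 0.10 against DMSO and to 0.24 and 0.24 against UNC0642 for A366 in MP41, MYC to -0.23 and -0.23 against UNC0642, and CCNE1 without the block to -0.22 against DMSO. As labelled, CDKN1A reversed to -0.46 and -0.26 for A366 in MP41 and to 1.82 for the line difference. The cause was not tested.

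Replicate numbers did not pair the samples, with correlations of same-numbered libraries from -0.42 to 0.48. With the replicate block, 6 of the 10 genes were past the threshold for A366 in MP41, where 6285 of all 14956 genes were. The number of all genes called ran from 0 to 3087 for A366 in Mel92.1 (31 in the reported fit), 0 to 413 for UNC0642 in Mel92.1 (100), 0 to 180 for UNC0642 in MP41 (36), 0 to 214 for A366 against UNC0642 in Mel92.1 (24), 0 to 315 for the line difference in UNC0642 (95) and 52 to 9276 for that in A366 (2179). CCNE1, at 189 to 824 counts per library, was the gene with the least depth.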
